A study of Caenorhabditis elegans with 2 samples.

Results

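The genes for small nucleolar RNAs (snoRNAs) of the nematode Caenorhabditis elegans were examined as 346 loci, which are all genes of biotype snoRNA on the 6 nuclear chromosomes in the Ensembl annotation of WBcel235, out of 46890 annotated genes there. Binding of CEH-82, a homeobox protein, was measured in whole L1 larvae of pooled sexes and unknown age by ChIP-seq, which sequences the DNA that comes down with a protein, in 1 group of 2 biological replicates. Every worm was of strain OP212, which carries the mutation unc-119(ed3) on chromosome III and the transgene ddEx58, whose name is that of an extrachromosomal array, with ceh-82 tagged by enhanced green fluorescent protein (eGFP). No source used here gives the promoter on the transgene, the antibody is labelled only by its target, and peak lists hold no expression by which the labelled stage could be checked. A locus was called bound when the summit of a peak in the authors' optimal list, the 3913 peaks kept after thresholding by the irreproducible discovery rate, lay within 500 bp of its 5' end. The loci fell into 150 host-intron loci, which lie wholly inside an intron of a protein-coding gene on the same strand, 124 free-standing loci, which overlap no protein-coding gene, 27 loci in introns of a gene on the opposite strand (antisense-intron) and 45 loci that overlap an exon. They were 54 to 344 bases long, with a median of 130.

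Most snoRNAs guide enzymes to bases of ribosomal RNA, where box C/D snoRNAs direct methylation of the ribose and box H/ACA snoRNAs direct the change of uridine to pseudouridine. A snoRNA inside an intron can be cut out of the host's messenger RNA precursor and needs no promoter of its own, whereas a free-standing gene needs one. Transfer RNA (tRNA) genes are read by RNA polymerase III from the A box and the B box inside the gene, and genes for spliceosomal small nuclear RNAs (snRNAs) from a proximal sequence element (PSE) upstream.

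The 120 bases that end just before the snoRNA 5' end are shown for 7 loci, because the summits of most bound loci fell inside this stretch. Each is given 5' to 3' along the strand of the snoRNA, from the RefSeq genome of the same assembly (ce11, WBcel235). The first 3 loci carry a PSE-like element, AACNCG and TGTCGG 5 bases apart, in capitals. The next 2 carry TGGCNNAGT, the letters of an A box, followed by GTTCNANNC, the letters of a B box, in capitals. M106.6 carries a looser first box, TGGNNNAGT, followed by GTTCNANNC, also in capitals. Y38F2AR.14 carries none of these arrangements as spelled within the 120 bases and is shown as a strong bound locus. It does hold tggccgact, close to TGGCNNAGT. Its stretch ends in gttcg, the first letters of GTTCNANNC, so a box that runs on into the snoRNA would not be counted. ZK994.7 (plus strand, chrV:8500459-8500578) lies in an intron of pxn-1, C08D8.3 (plus strand, chrV:8348988-8349107) in an intron of C08D8.1 and C16D9.11 (minus strand, chrV:8228970-8229089) in an intron of rol-3. Y43F8C.22 (minus strand, chrV:19643188-19643307) lies in an intron of Y43F8C.7, and T10B9.11 (minus strand, chrII:9774835-9774954) is free-standing. Y38F2AR.14 (minus strand, chrIV:2408636-2408755) lies in an intron of Y38F2AR.12 and M106.6 (plus strand, chrII:10840197-10840316) in an intron of mix-1. The coordinates are those of the printed bases.
ZK994.7: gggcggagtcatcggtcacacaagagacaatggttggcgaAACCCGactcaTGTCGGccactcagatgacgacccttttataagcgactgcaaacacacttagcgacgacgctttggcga
C08D8.3: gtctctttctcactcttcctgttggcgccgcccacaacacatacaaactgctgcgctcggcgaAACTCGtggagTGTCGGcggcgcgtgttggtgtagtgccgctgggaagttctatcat
C16D9.11: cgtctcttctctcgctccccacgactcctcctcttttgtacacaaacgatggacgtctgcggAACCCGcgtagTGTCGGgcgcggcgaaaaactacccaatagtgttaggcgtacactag
Y43F8C.22: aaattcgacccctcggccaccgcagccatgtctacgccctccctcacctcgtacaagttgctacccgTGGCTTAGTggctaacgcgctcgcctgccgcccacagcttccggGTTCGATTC
T10B9.11: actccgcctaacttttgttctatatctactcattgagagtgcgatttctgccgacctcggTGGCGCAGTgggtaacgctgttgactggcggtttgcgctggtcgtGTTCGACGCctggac
Y38F2AR.14: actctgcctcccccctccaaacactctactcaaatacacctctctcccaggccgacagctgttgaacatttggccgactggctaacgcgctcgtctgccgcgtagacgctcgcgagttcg
M106.6: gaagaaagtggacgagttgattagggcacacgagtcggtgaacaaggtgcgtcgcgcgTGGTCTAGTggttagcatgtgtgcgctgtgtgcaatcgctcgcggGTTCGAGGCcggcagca

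CEH-82 peaks were found at 104 of the 346 snoRNA loci, 30.1% (exact 95% interval 25.3 to 35.2%). The same rule called 8.62% of all annotated genes and 12.6% of protein-coding genes. Among the 3913 strongest peaks of each replicate alone, replicate 1 bound 102 loci and replicate 2 bound 104, which gave 29.8% ± 0.409 (SD, n = 2). Of the 104 loci, 92 were bound in both replicates' lists and 0 in neither, although the optimal list was itself made from both. A further 9 of the 242 unbound loci had a summit in the list of 1 replicate or both. Intervals cover counting error only, and both replicates were called against 1 control alignment, so they can share its errors. Read depth is unknown.

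A larger share of free-standing than of host-intron loci was bound, in the optimal list and in both replicates. A summit lay within 500 bp of 48 of 124 free-standing loci (38.7%, interval 30.1 to 47.9%) and of 37 of 150 host-intron loci (24.7%, interval 18.0 to 32.4%). In the replicates' own lists the free-standing share was 39.1% ± 0.570 and the host-intron share 24.0% ± 0.943 (SD, n = 2). The difference was 14.0 percentage points (Newcombe 95% interval 3.01 to 24.8), with 16.2 points in replicate 1 and 14.0 points in replicate 2. An exact permutation test over 2 replicates cannot go below p = 0.5, two-sided, which is the value it gave. Loci that share a host are not independent, so the Newcombe interval may be too narrow. With loci of 1 class that share a host or lie within 1000 bp joined, the difference was 10.6 points, without an interval. Antisense-intron loci were bound in 12 of 27 cases (44.4%, interval 25.5 to 64.7%) and exon-overlapping loci in 7 of 45 (15.6%, interval 6.49 to 29.5%). The difference between free-standing and host-intron loci depended on the distance and on peak strength: it was -1.12 points, with host-intron loci ahead, when 1000 bp counted as bound, and 4.05 points with the 1956 strongest peaks alone. With the whole pooled list, which the authors label peaks and background, the shares were 49.7% of all loci, 42.0% of host-intron and 58.9% of free-standing loci. That list is longer than the optimal one, and the share of all annotated genes it reaches is not given here. These shares therefore cannot be set against a background.

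**Figure D1:**
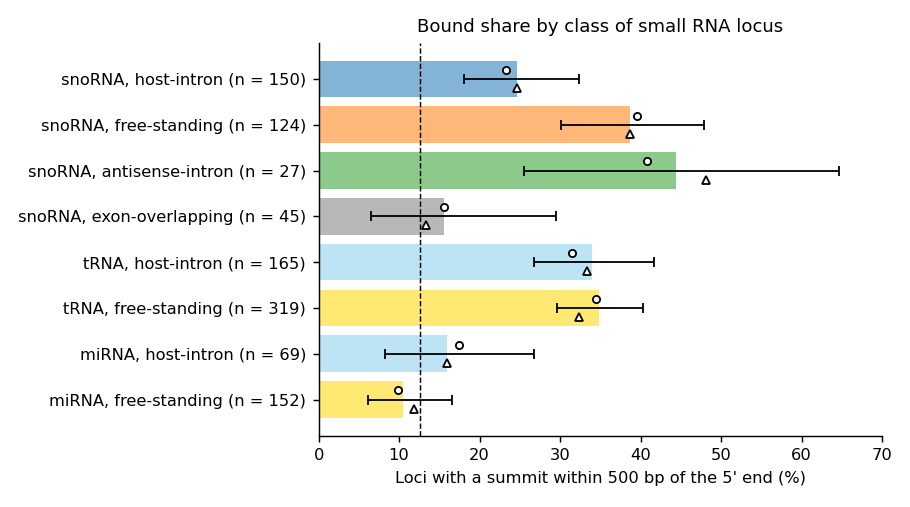
Share of loci with a summit within 500 bp of the 5' end, in percent, for 4 classes of snoRNA locus and for host-intron and free-standing tRNA and microRNA (miRNA) genes. Bars are the optimal list with exact 95% intervals, circles replicate 1 and triangles replicate 2, and the dashed line is the 12.6% of protein-coding genes. Free-standing snoRNA loci (38.7%) stand above host-intron ones (24.7%), while the tRNA classes lie at 34.8 and 33.9%.

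The summits stood just upstream of the snoRNA. A summit lay within 100 bp of the 5' end at 81 of the 346 loci (23.4%), against 2.82% of all annotated genes and 2.87% of protein-coding genes; the 100-bp distance was chosen after the positions had been seen. These 81 loci are 77.9% of the bound ones, where the same share is 22.8% for bound protein-coding genes. The median summit of bound loci lay 40 bp upstream of the 5' end (position -40, quartiles -72 and -22.75), compared with a median position of -172 at protein-coding genes. Of the 81 near summits, 74 were upstream and 69 lay 10 to 90 bp upstream. In the replicates the median position at these loci was -42 in replicate 1 (79 loci) and -38 in replicate 2 (75 loci). Where both replicates had a summit, the replicates' summits lay a median of 16 bp apart, and within 20 bp of each other at 48 of 73 loci.

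Near summits were found at 27 of 150 host-intron loci (18.0%), 39 of 124 free-standing loci (31.5%), 9 antisense-intron loci and 6 exon-overlapping loci. The median near summit was at -38 in both host-intron and free-standing loci and at -33 in antisense-intron loci. All 27 near summits of host-intron loci were upstream, between -76 and -4 in the optimal list. The difference in the near share, free-standing minus host-intron, was 13.5 points (interval 3.24 to 23.6). This interval also treats loci that share a host as independent and may be too narrow.

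**Figure D2:**
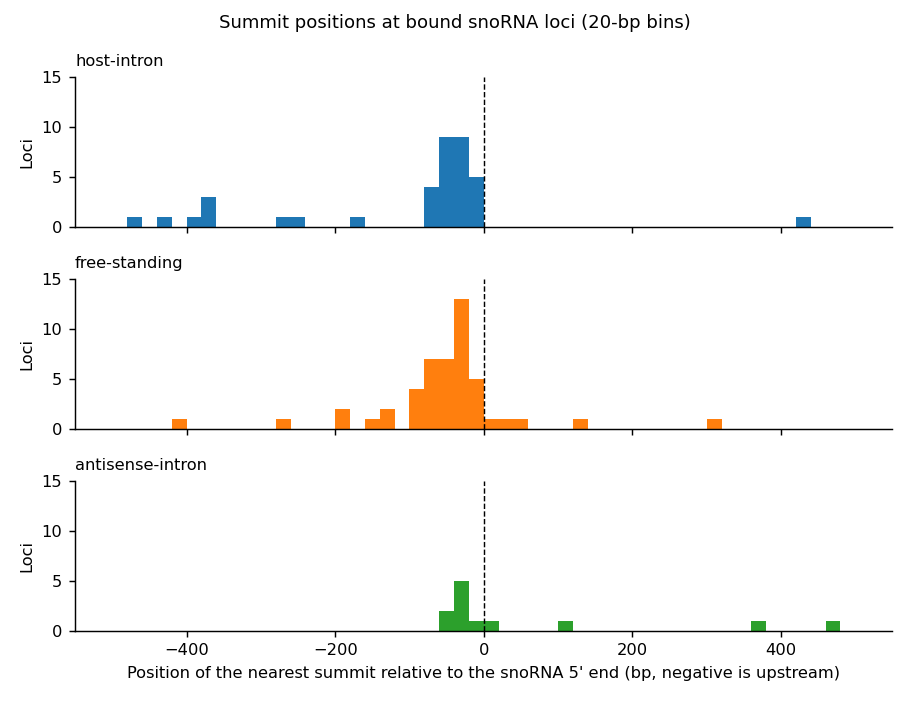
Number of bound loci by position of the nearest summit relative to the snoRNA 5' end, in 20-bp bins, for host-intron, free-standing and antisense-intron loci. In each class most summits sit within 100 bp upstream of the dashed line at the 5' end, and host-intron loci have a second, smaller set farther upstream, down to position -480 at B0041.9.

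The host gene's own promoter coincided with the peak at a minority of bound host-intron loci, and at some of these another gene's promoter did too. A promoter window was set from 1000 bp upstream to 200 bp downstream of each annotated 5' end of a protein-coding gene. Of 37 bound host-intron loci, 13 had the summit in a window of the host (35.1%, interval 20.2 to 52.5%; 37.8% and 37.1% in the lists of replicates 2 and 1), 3 in the window of another gene only, and 21 in no such window (56.8%, interval 39.5 to 72.9%). Some of the 13 summits lay in another gene's window as well. These were at F54E7.10 (ska-3), D1007.20 (rps-10), B0041.9 (B0041.8), F28C6.11 (cpf-1), Y24D9A.9 (set-21), smy-2 (C33A12.4) and F55A11.10 (F55A11.11). At F54E7.10, B0041.9 and F28C6.11 the other gene's 5' end was nearer to the summit than the host's. At 28 of the 37 the summit was closer to the snoRNA 5' end than to any protein-coding 5' end, and the count was 48 of 48 for free-standing loci. A bound summit lies within 500 bp of the snoRNA by rule. Summits over 500 bp from every protein-coding 5' end were therefore certain to be counted, and the counts cannot show which gene a peak belongs to. With 250 bp as the bound distance the share in the host window was 20.7%.

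Summits in and outside the host window differed in where they lay against the snoRNA. Among the 13 in the host window, 5 were within 100 bp of the snoRNA 5' end, whereas among the 24 outside it 22 were. The 5 near summits were at Y37E3.20 (host pcyt-2.1), Y71F9AM.7 (cogc-3), D1046.6 (cfim-2), smy-2 (C33A12.3) and F55A11.10 (F55A11.6), so at these loci the snoRNA's start and the host's promoter could not be told apart as the place of the peak. The other 8 were at 6 loci in ribosomal protein genes, at K02F3.15 in zip-2 and at K07C5.11 in nol-56, whose product is a core protein of box C/D snoRNA particles. These 8 peaks had a median signal, the authors' own value per peak, of 172, and 7 of them ranked among the 978 strongest of the 3913 optimal peaks. These loci were named after their values were seen.

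Loci far from the host's start were bound as well. Over 1500 bp from every host 5' end, where no summit within 500 bp of the snoRNA can lie in a host window, 14 of 59 loci were bound (23.7%, interval 13.6 to 36.6%), 13 of them within 100 bp. In the introns of those loci's hosts beyond the same distance, a mean of 12.5% of bases lay within 500 bp of a summit and 4.30% within 100 bp, against 22.0% of the loci with a near summit; the snoRNA peaks themselves are part of those intron bases. By position of the snoRNA, near summits were found at 2 of 34 loci lying 0 to 500 bp downstream of the host 5' end, 2 of 19 at 500 to 1000 bp, 10 of 33 at 1000 to 2000 bp and 10 of 39 farther downstream. Another 3 of 25 were at loci whose nearest annotated host 5' end lay downstream of the snoRNA. These distance limits were chosen after the data had been seen.

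Host-intron loci were next split by whether the host's promoter window held a peak anywhere. Where a host window held a summit, 22 of 88 loci were bound (25.0%, interval 16.4 to 35.4%) and 13 were near. Where it held none, 15 of 62 were bound (24.2%, interval 14.2 to 36.7%) and 14 were near (22.6%, against 14.8%). The bound share with a host peak minus that without was 0.806 points (Newcombe interval -13.5 to 14.2), an interval that leaves room for a difference either way. The 13 bound loci with their own summit in a host window were placed in the first group by definition. The split therefore cannot show whether a host peak goes with a bound snoRNA. In ribosomal protein genes the hosts' windows held a summit for 21 of 21 loci, yet 6 of the 21 loci were bound and 0 had a summit within 100 bp (exact upper limit 16.1%). Loci in other hosts were bound in 31 of 129 cases (24.0%). Beyond the bound distance, 30 host-intron loci and 6 free-standing loci had their nearest summit over 500 and up to 1000 bp away. Of those 30 summits, 23 lay in the host window.

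**Figure D3:**
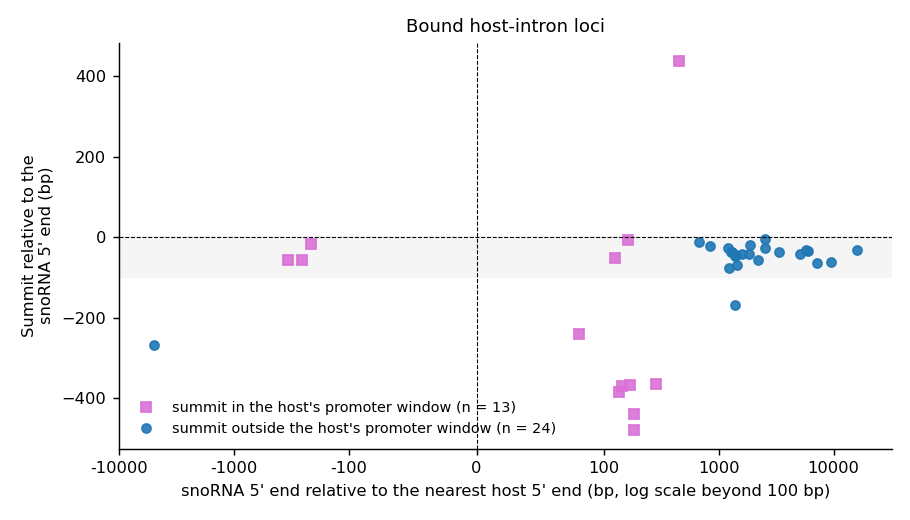
Each point is 1 of the 37 bound host-intron loci, by distance of the snoRNA 5' end from the nearest host 5' end (horizontal axis, bp, logarithmic beyond 100 bp) and by position of the summit relative to the snoRNA 5' end (vertical axis, bp). Squares are the 13 summits in the host's promoter window and circles the 24 outside it, of which 22 lie within 100 bp of the snoRNA start (the grey band is the 100 bp upstream).

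The 6 strongest peaks at host-intron loci lay in host promoter windows. F54E7.10, in rps-12 (ribosomal protein of the small subunit), had a signal of 383 in the optimal list, 239 in replicate 1 and 142 in replicate 2, each on its list's own scale, with the summit 241 bp upstream of the snoRNA and also in the window of ska-3. K02F3.15, in zip-2 (a bZIP transcription factor), had signals of 214, 116 and 102 with the summit at position 437, downstream of the snoRNA start. Both lay far from the snoRNA start in both replicates. The same held for D1007.20 in rpl-24.1 (183, 115 and 66.9; -384), Y24D9A.9 in rpl-7A (172, 106 and 67.3; -366), B0041.9 in rpl-4 (172, 99.5 and 71.1; -480) and H06I04.9 in ubl-1 (164, 98.3 and 66.0; -368). Of these hosts the rpl genes encode proteins of the large ribosomal subunit.

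The next host-intron loci by signal had their summits beside the snoRNA. Y38F2AR.14 had signals of 145, 87.7 and 56.0 in the optimal list, replicate 1 and replicate 2, with summits at -28, -29 and -39. It lies 1196 bp from its host's 5' end. ZK994.7 had signals of 135, 88.8 and 42.5 with summits at -33, -52 and -29, and lies 5690 bp into pxn-1, which encodes a peroxidasin. Y43F8C.22 had signals of 134, 79.6 and 52.0 with summits at -21, -20 and -39. These summits were in no protein-coding promoter window.

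The same was seen at M106.6, which lies 16071 bp from the nearest 5' end of mix-1, a gene for a condensin subunit. Its signals were 127, 85.1 and 47.5, with summits at -31, -49 and -66. C51F7.3 in frm-7 carried signals of 127, 87.5 and 40.5 with the summit at -76, the farthest upstream among near host-intron loci. The same peak was also counted for the exon-overlapping locus C51F7.4, whose 5' end was nearer, with the summit at position 33. Y37E3.20, in pcyt-2.1, had signals of 125, 74.3 and 47.9 with the summit at -57 and inside the host window. Among weaker loci outside promoter windows were C08D8.3 (114, 70.3 and 38.2; -37), W08G11.6 (89.8, 46.5 and 42.3; -27), C27H6.5 in unc-41 (88.4, 53.5 and 35.6; -43), C16D9.11 in rol-3 (87.0, 46.7 and 36.7; -61) and F11A10.9 in rbm-34 (76.6, 43.9 and 31.1; -38).

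Free-standing loci had their strongest peaks close to the snoRNA too. Y53F4B.47 had signals of 183, 121 and 61.2 in the optimal list, replicate 1 and replicate 2, with the summit 79 bp upstream and in the window of cmtr-1. F09G2.14 had 171, 106 and 62.3 with the summit at -89, and Y53F4B.48 had 149.7, 83.0 and 63.5 with the summit at -45, in the window of the glutathione S-transferase gene gst-27. F37F2.4 (153, 98.6 and 59.7; -277) and M7.15 (138, 99.3 and 36.8; -147) were the 2 of the 12 strongest with a summit over 100 bp away. Then followed F59C6.15 (134, 85.0 and 48.7; -97), D2021.6 (124, 69.4 and 55.4; -31), H09I01.2 (119.8, 69.7 and 46.9; -39) and T06C12.16 (115, 63.8 and 49.8; -55). The last 3 were T10B9.11 (103, 57.2 and 43.3; -47), ZK265.10 (102, 69.0 and 32.1; -62) and F30H5.4 (101, 63.4 and 38.9; -37). In 9 of these 12 the summit lay in a protein-coding promoter window, including 7 of the 10 with a summit within 100 bp of the snoRNA. Of the 48 bound free-standing loci, 20 had the summit in a protein-coding promoter window (41.7%, interval 27.6 to 56.8%), a share that fell to 25.0% with windows of 500 bp.

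Over all classes the signal at snoRNA peaks was above the middle of the list. The 102 peaks at bound loci had a median signal of 82.4, compared with 55.7 for the 3913 optimal peaks, and 46 of them were among the 978 strongest. Counted per bound locus the median was 83.8, against 119 at 16 snRNA genes, 61.4 at 33 miRNA genes and 52.6 at 212 tRNA genes. Medians were 88.4 at host-intron loci (37 peaks) and 78.5 at free-standing loci (48 peaks). The host-intron value includes 8 peaks in host windows over 100 bp from the snoRNA, with a median of 172. The 27 host-intron peaks within 100 bp had a median of 76.6, and that value for free-standing loci is not given here. Among the 92 loci bound in both replicates the signal ran from 17.2 through a median of 53.2 to 239 in replicate 1 and from 11.8 through 36.7 to 142 in replicate 2.

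**Figure D4:**
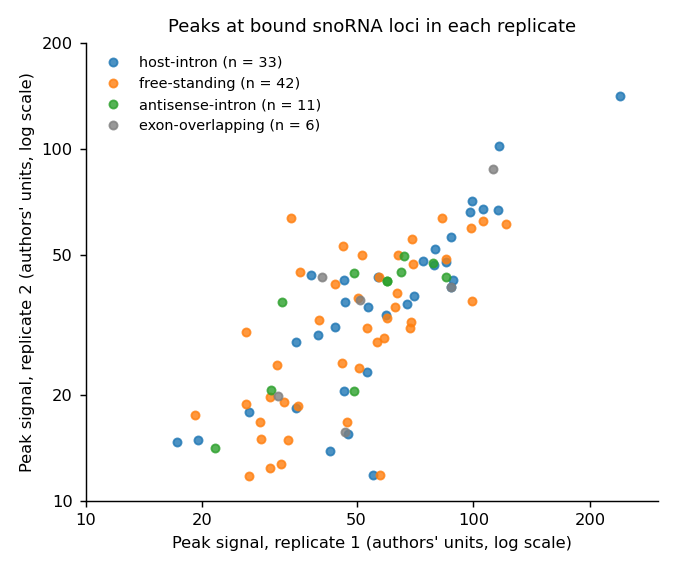
Peak signal in replicate 2 against replicate 1, in the authors' units on logarithmic axes, for the 92 loci bound in both replicates' lists, coloured by class. The highest point in both replicates is a host-intron locus, at 239 and 142, and the classes overlap over the rest of the range.

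Hosts of several snoRNAs had at most 1 bound locus each. The 150 host-intron loci lay in 131 host genes, 16 of which held more than 1 locus. Of these 16 hosts, 4 had 1 bound locus and 0 had more. Most of the 16 held only 2 loci, and 24.7% of all host-intron loci were bound. The count of 0 was not tested and cannot be read as particular to these hosts. The gene nol-56 held 4 loci, 1 of them bound. In rpl-6 and in top-2, which encodes DNA topoisomerase II, 0 of 3 loci were bound, and in Y37E3.8 and air-1, the gene for an Aurora kinase, 0 of 2. Counted as units that join loci of 1 class sharing a host or lying within 1000 bp, the difference between free-standing and host-intron loci was 10.6 points.

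A larger share of short than of long loci was bound, which was not tested. Loci under 100 bases, a limit chosen after the data had been seen, were bound in 48 of 93 cases (51.6%, interval 41.0 to 62.1%) and longer ones in 56 of 253 (22.1%, interval 17.2 to 27.8%). Within the host-intron class the counts were 16 of 41 and 21 of 109, and within the free-standing class 20 of 30 and 28 of 94. A strict box C/D signature (TGATGA within 20 bases of the 5' end and CTGA within 15 bases of the 3' end) was present at 14 loci, of which 9 were bound. The H/ACA signature, ACA followed by 3 bases at the 3' end, was present at 58 loci, of which 21 were bound. The remaining 274 loci had neither and 74 of them were bound, so the signatures classify a small share of the snoRNAs. By chromosome the bound share ran from 12.1% on X (4 of 33) to 38.2% on V (21 of 55). The share of all genes on each chromosome is not given here, so this spread cannot be read as particular to snoRNA loci.

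Elements like those of RNA polymerase III and snRNA genes were found upstream of some bound loci. They were picked by reading and ranking the upstream letters of these same loci, so the shares of bound and unbound loci are descriptions. In the 120 bases upstream, on the strand of the snoRNA, AACNCG, then 5 bases, then TGTCGG was present at 16 of 81 near loci, 11 of 242 unbound loci and 7 of 19973 protein-coding genes (0.0350%). The letters TGGCNNAGT followed by GTTCNANNC were present at 8 near loci, 1 unbound locus and 1 protein-coding gene (0.00501%). The wider TGGNNNAGT as the first box, tried after these counts were seen, gave 11 near loci, 1 unbound locus and 6 protein-coding genes. Either arrangement was found at 24 of 81 near loci (29.6%), 10 of 27 host-intron and 10 of 39 free-standing, and at 0 of 23 loci bound at over 100 bp. On the opposite strand there were 0 at near loci.

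Seen from the elements, 16 of the 27 loci with the PSE-like letters and 8 of the 9 with the A-then-B letters were bound, in each case with the summit within 100 bp. Among host-intron loci these counts were 6 of 8 and 4 of 4. Most near loci, 57 of 81, had neither arrangement as spelled here. Letters that crossed the snoRNA 5' end were not counted. Of the 310 loci with neither, 80 were bound.

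At near loci the A-box-like and B-box-like letters kept a narrow distance from the snoRNA, and the PSE-like element a wider one. Positions at unbound loci with these letters are not given here. The A-box-like letters were centred 49 to 57 bp upstream of the 5' end at the 8 near loci (median position -53) and the B-box-like letters 5 to 13 bp upstream (median -9). The PSE-like element was centred 46 to 72 bp upstream at 16 loci (median -51). Relative to the summit the medians were -11, 33 and -10 bp, and the centre lay within 50 bp of the summit at 8 of 8, 7 of 8 and 16 of 16 loci. By rule, near loci have their summit close to the snoRNA 5' end, and the letters were sought only just upstream of it. Closeness of element and summit is therefore largely built in, and no control position is given here. The counts cannot show that the summits follow the elements rather than the 5' end.

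**Figure D5:**
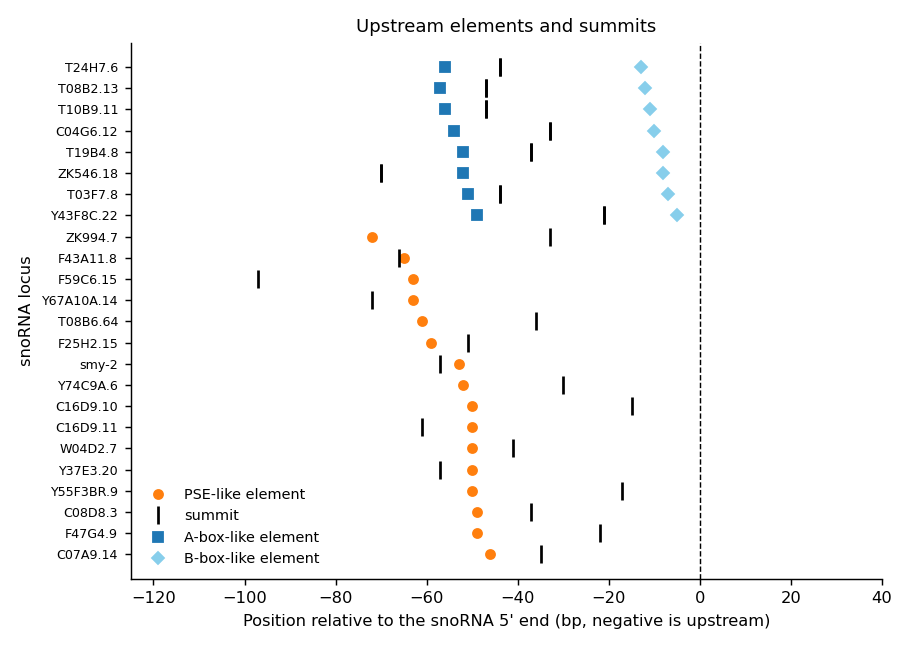
Position of the element centres and of the summit relative to the snoRNA 5' end (bp, negative is upstream) for the 24 loci with a near summit and either arrangement. Squares and diamonds are the A-box-like and B-box-like letters of 8 loci, circles the PSE-like element of 16 loci and vertical bars the summits, which scatter around or between the elements.

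Short sequences were looked for on either strand, up to 100 bp from the summit. GTTCGA, the core of the B box, was present at 27.5% of the 80 near snoRNA summits (40.7% of 27 host-intron and 23.1% of 39 free-standing), at 10.2% of all optimal summits and at 1 of the 23 summits farther from a bound snoRNA. GCGCAG was present at 23.75% of near summits and 11.0% of all. GAGAGA, found at 47.5% of all optimal summits, was present at 32.5% of near summits. The homeodomain-type core TAATTA was present at 2.50% of near summits and 3.91% of all, and TATAAA at 17.5% and 11.2%.

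In other small RNA genes the median summit stood elsewhere or the bound share was lower. Of 612 tRNA genes 212 were bound (34.6%) and 187 had a summit within 100 bp (30.6%, or 88.2% of the bound ones), both near shares above those of snoRNA loci (23.4% and 77.9%). Their median summit was at position 11, inside the gene, and host-intron and free-standing tRNA genes were bound at 33.9 and 34.8%, a difference of 0.857 points (interval -8.18 to 9.52). Of 129 snRNA genes 16 were bound, 15 of them near, with a median position of -49.5, a comparison added after the data had been seen. Among snRNA genes, 1 of 14 with the PSE-like letters and 14 of 115 without them had a near summit. Of 261 miRNA genes 33 were bound (12.6%), 1.92% with a near summit, and the median position was -226. A tRNA 5' end lay within 500 bp of the summit at 1 of the 104 bound snoRNA loci.

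At the edge of the rule, the 3 bound loci with the farthest summits were F28C6.11 (position -440), R08C7.19 (467) and B0041.9 (-480). The 3 unbound loci with the nearest summits were Y37E3.21 (-508), R151.11 (-510) and C06A1.9 (-515), all host-intron loci.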

How the data were processed

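The 2 samples are biological replicates of 1 group, per the labels, from ChIP-seq of eGFP-tagged CEH-82. The deposited ce11 lists are in narrowPeak format, per the deposited read-me files: 24014 peaks in replicate 1, 30000 in replicate 2, 16974 in the pooled list and 3913 in the optimal list, which was derived from the others. Each peak has the authors' signal value (27.6 to 595.3 in the optimal list) and a deposited −log10 q-value, whose ceiling of 3.82 is reached by 83.6% of optimal peaks, so peaks were ranked by signal. The sources used here do not give aligner, caller, threshold or read depth, and the ce10 lists were not analysed here.

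Genes came from Ensembl release 115 and sequence from the RefSeq genome of WBcel235. A replicate's own list was its 3913 strongest peaks. Intervals are exact binomial or, for differences, Newcombe 95% intervals (Python 3.11.15, numpy 2.4.6, scipy 1.17.1, figures with matplotlib 3.10.9). Counting steps were tested on simulated summits. No set test was made. Alternatives were other distances, windows, host definitions, peak strengths, midpoints, joined loci and each replicate alone. Named were the 12 strongest bound loci of both main classes, the 10 strongest bound host-intron loci outside promoter windows, the 5 hosts with most loci (ties by name) and the 3 loci on each side of 500 bp. Loci and lists were chosen with earlier results of these data known.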

Additional observations from a re-analysis of the deposited data

How the results depend on the processing

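The 12 other settings gave 51 values of the 6 shares and differences, of which 18 moved by less than the spread between the replicates (1 SD), 32 moved by more and 1 turned in direction. The SDs are small, from 2 replicates, so small moves count. With 250 bp as the bound distance the shares were 26.3% of all loci, 19.3% of host-intron and 36.3% of free-standing loci, the difference was 17.0 points, and 20.7% of bound host-intron loci had the summit in the host window. With 1000 bp the shares were 41.0%, 44.7% and 43.5% and the difference turned to -1.12 points. The 1956 strongest optimal peaks gave 20.8%, 19.3% and 23.4%, a difference of 4.05 points, and 44.8% and 48.3% of bound host-intron and free-standing loci with the summit in a host or protein-coding window. The whole pooled list gave 49.7%, 42.0% and 58.9% and 16.9 points. For these other distances and lists the share of all annotated genes is not given here. Hosts of any biotype gave 36.1% of free-standing loci and 10.9 points, and joined units gave 28.5% of host-intron loci and 10.6 points. Promoter windows of 500 and 2000 bp put 25.0% and 54.2% of bound free-standing loci in a window. The cause of these moves, the turn at 1000 bp included, was not tested. Leaving out 1 replicate gave 29.5 to 30.1% of all loci, 23.3 to 24.7% of host-intron and 38.7 to 39.5% of free-standing loci, differences of 14.0 to 16.2 points, 37.1 to 37.8% in the host window and 43.75 to 44.9% in a protein-coding window. The wider A-box-like letters, added after seeing the data, gave 13.6% in place of 9.88% of near loci and left 0.413% of unbound loci. No paired analysis was possible because the samples form 1 group.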
